A study of Mus musculus with 11 samples.

Results

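Proteasome genes were followed in RNA of mouse blood eosinophils as the 50 protein-coding genes whose symbols begin with Psma to Psmg and a digit, of 55486 genes in the count table. Of these, 5 were set apart as immunoproteasome genes (Psmb8, Psmb9, Psmb10, Psme1 and Psme2) and 45 were the rest. The pattern took 49 genes of subunits, assembly factors and regulators and 1 gene that is none of these, Psmc3ip, a recombination factor named for its binding to a proteasome ATPase. It left out 5 pseudogenes with matching symbols, none of which had over 3 counts in a library. The libraries were made with Smart-seq2, which reads whole transcripts from little RNA, for FVB/N mice with metastatic disease derived from mammary tumours. Of the 11 mice, 7 received cisplatin, a DNA-crosslinking drug, with antibodies to the checkpoint receptors PD1 and CTLA4 (treated), and 4 received control antibody (control). All were bled on day 21 after treatment began, and eosinophils were sorted by flow cytometry as live CD45+, CD3-, CD11b+, F4/80+ cells, low for Ly6g and high in side scatter. Each mouse gave 1 library. The labels state no age, and the treated mice received the drug and both antibodies together, so the agents cannot be told apart.

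The proteasome is the main protease for proteins tagged with ubiquitin. Its 20S core is a barrel of α rings around β rings, in which Psmb5, Psmb6 and Psmb7 encode the proteolytic β subunits. The 19S cap, built from Psmc ATPases and Psmd subunits, binds, unfolds and feeds in the substrate. Interferon gamma induces Psmb8, Psmb9 and Psmb10, whose products replace Psmb5, Psmb6 and Psmb7 in newly built cores, and Psme1 and Psme2, which form the PA28αβ activator. Leukocytes also carry such immunoproteasomes without stimulation, and these favour peptides that fit MHC class I molecules.

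Library totals ran from 3733156 to 8016658 counts, and the 50 genes took 0.391% to 0.729% of them. All 12 markers of the labelled cell type (Siglecf, Ccr3, Il5ra, Epx and others) were detected, and their summed level ran from 4508 to 11748 counts per 1000000 (CPM) over treated mice and from 5019 to 11673 over controls. Other cell types also left transcripts. Control 3 and control 4 stood apart, with haemoglobin genes at 28.2% and 20.1% of counts against 0.165% to 4.42% in the other libraries. The identifiers in the table header carry the digits 19 in all treated and 20 in all control libraries, so anything these mark cannot be told apart from treatment. Their letters are KDV in treated 1 and all controls and VIS in the other treated libraries.

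In the eosinophils the core, cap and PA28αβ genes were expressed in all 11 libraries, and both tissue-restricted core genes were at 0. Psma8, the α subunit of testis, and Psmb11, the catalytic β subunit of thymic epithelium, had 0 counts in every library. This allows up to 0.374 to 0.804 CPM depending on the library (3 counts of its unscaled total, counting error only). The remaining 48 genes passed the filter on low counts. Their levels varied less across mice than those of the median gene. The median coefficient of variation over the 7 treated libraries was 24.2% for the 48 proteasome genes (13.4% to 63.0%) and 48.0% for all 11389 genes tested, and over the 4 controls 27.8% and 62.4%. The proteasome genes also had more counts, with a median level of 99.0 CPM against 21.9 CPM (TMM-scaled, as are all CPM of single genes except the limit above). The part of this depth in the smaller spread was not tested. Psmd6, a cap subunit, varied least in treated libraries and Psmd3, another, most.

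Per kilobase, the immuno-type catalytic genes had a higher median level than the standard core genes. With merged exons as the length, the 14 detected standard 20S genes had a median of 56.2 CPM per kb, the 17 19S genes 35.4 and the 3 immuno-type genes Psmb8, Psmb9 and Psmb10 86.5. With the principal transcript of each gene as the length these medians were 87.6, 62.2 and 158, and with the coding length 219, 82.7 and 253. The order of the 3 groups was the same with each length, while single levels moved more. Psmb7 was the lowest standard 20S gene each time, at 10.98, 32.4 and 45.2 CPM per kb. The highest was Psmb2, a structural β subunit, by merged exons (147 CPM per kb) and Psma7, an α subunit, by the other lengths (353 and 426 CPM per kb). The highest level was 13.4, 10.9 and 9.41 times that of Psmb7, whose product can be replaced by that of Psmb10. Of the detected core genes without an immuno-type counterpart, Psma4 was the lowest, at 24.1, 49.0 and 72.9 CPM per kb. The core holds the products of these other genes in equal numbers.

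**Figure D1:**
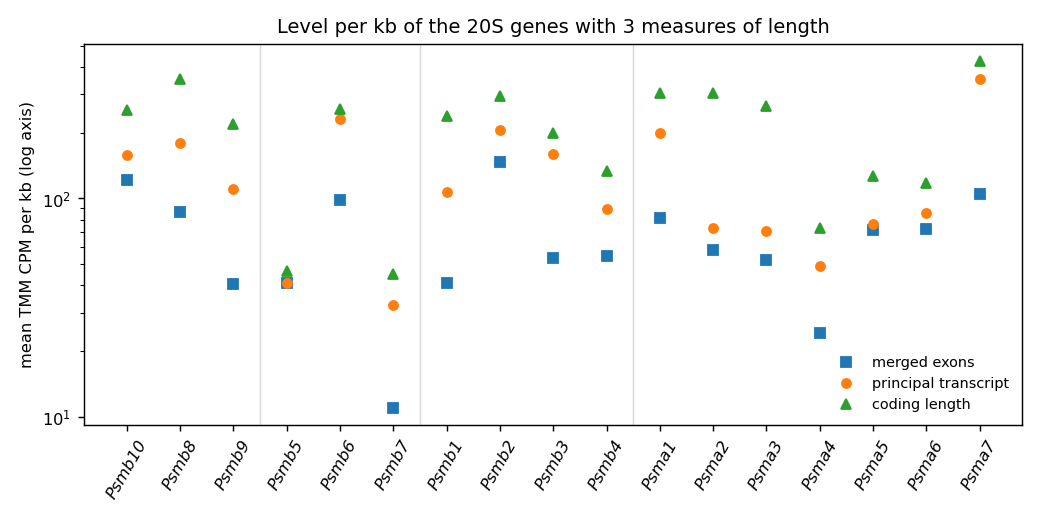
Mean level over all 11 libraries of the 17 detected genes of the 20S core, in TMM-scaled CPM per kb on a log axis, with length measured by merged exons (squares), the principal transcript (circles) or the coding part (triangles). From the left, the lines part immuno-type, standard catalytic, other β and α genes. Psmb5 and Psmb7 lie below Psmb8 and Psmb10 with each length.

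The immuno-type genes differed in how they stood to the standard gene whose place their product takes. Psmb8 (β5i, the chymotrypsin-like immuno subunit) was 2.12, 4.40 and 7.62 times as abundant per kb as Psmb5 by merged exons, principal transcript and coding length. Psmb10 (β2i, trypsin-like) was 11.1, 4.88 and 5.60 times as abundant as Psmb7. For Psmb9 (β1i) the order was the other way, at 0.413, 0.476 and 0.852 times the level of Psmb6. By merged exons Psmb8 stood at 86.5 ± 24.0 CPM per kb (SD, n = 11) and Psmb5 at 40.8 ± 18.2. Psmb10 stood at 122 ± 16.6 and Psmb7 at 10.98 ± 2.54 CPM per kb. The exons of Psmb7 share 405 bp, 11.8% of their length, with Nek6 on the other strand. Over all libraries Nek6 had 1823 counts and Psmb7 2641, and the part of Nek6 in the level of Psmb7 was not tested. Psmb9 stood at 40.7 ± 11.4 and Psmb6 at 98.6 ± 23.7 CPM per kb. These are transcript levels, which do not give the amount of protein or its place in the core.

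Promoter sequences are given for 2 immunoproteasome and 2 standard catalytic genes that held a match to 1 of 3 short motifs, and were picked for that match. Psmb9, Psmb10 and Psme2 held no match to any of the 3. The windows span 250 bases before and 50 bases from the gene start in RefSeq (GRCm38.p6), run 5′ to 3′ on the gene's strand, and carry the searched motif in capitals. The motifs were TTCNNNGAA (GAS, the interferon gamma activated site), GAAANNGAA (the repeat bound by interferon regulatory factors) and TGACNNNGC (the antioxidant response element, bound by Nfe2l2 and its relative Nfe2l1), each on both strands. Shown are the window of Psmb8 with a GAS match (chr17:34197945-34198244, plus strand), of Psme1 with an interferon regulatory factor match (chr14:55578244-55578543, plus strand), and of Psmb5 (chr14:54617946-54618245, minus strand) and Psmb6 (chr11:70525107-70525406, plus strand), both with an antioxidant response match.
Psmb8: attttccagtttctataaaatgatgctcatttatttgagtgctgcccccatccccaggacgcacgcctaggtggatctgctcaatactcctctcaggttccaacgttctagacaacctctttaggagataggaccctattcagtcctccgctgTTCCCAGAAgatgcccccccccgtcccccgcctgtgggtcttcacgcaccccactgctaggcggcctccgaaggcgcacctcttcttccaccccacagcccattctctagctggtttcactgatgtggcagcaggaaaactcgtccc
Psme1: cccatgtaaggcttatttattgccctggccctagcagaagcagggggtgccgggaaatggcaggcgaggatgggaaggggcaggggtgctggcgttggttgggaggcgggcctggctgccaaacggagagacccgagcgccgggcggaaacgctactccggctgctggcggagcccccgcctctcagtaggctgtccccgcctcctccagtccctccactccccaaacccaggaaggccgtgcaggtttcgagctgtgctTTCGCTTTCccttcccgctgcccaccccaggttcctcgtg
Psmb5: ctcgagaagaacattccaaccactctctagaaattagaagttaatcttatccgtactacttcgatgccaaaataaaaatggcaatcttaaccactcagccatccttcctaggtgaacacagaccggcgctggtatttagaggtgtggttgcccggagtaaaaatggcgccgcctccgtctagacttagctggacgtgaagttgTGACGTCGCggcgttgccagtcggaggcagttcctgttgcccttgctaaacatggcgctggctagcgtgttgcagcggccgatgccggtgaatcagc
Psmb6: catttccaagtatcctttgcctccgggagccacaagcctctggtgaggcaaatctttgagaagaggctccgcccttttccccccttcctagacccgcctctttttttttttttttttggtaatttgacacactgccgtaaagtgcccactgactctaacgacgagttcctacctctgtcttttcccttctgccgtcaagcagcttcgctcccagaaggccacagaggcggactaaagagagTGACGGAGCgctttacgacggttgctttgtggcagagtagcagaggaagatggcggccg

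The match in Psmb8 began 97 bases before the start, that in Psmb5 47 and that in Psmb6 9 bases before it, and that in Psme1, which lies on the reverse strand, at base 11 of the 50 bases from the start. Of the 50 genes, 42 had a window in the RefSeq table. GAS matches were found in 1 of 5 immunoproteasome genes and 2 of 37 others, against 8.30% of all 32851 windows. Interferon regulatory factor matches were found in 1 of 5 and 6 of 37, against 8.56%, and antioxidant response matches in 0 of 5 and 6 of 37, against 12.4%. No matches of different motifs overlapped. A match is a run of letters and not a binding site, and these windows miss sites elsewhere. Of the immunoproteasome genes, Psmb8, Psmb9 and Psme1 have windows that lie wholly inside the gene as placed in the count table. There the gene starts further upstream than in RefSeq.

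The comparison of treated with control mice asked how cisplatin with anti-PD1 and anti-CTLA4 changed gene expression of blood eosinophils. No proteasome gene passed the test. Of the 48 tested, 0 reached an adjusted p of 0.05 with a higher and 0 with a lower level in treated mice (edgeR quasi-likelihood test, Benjamini-Hochberg over 11389 genes), where the background over all genes was 0% higher and 0% lower. DESeq2 called 0 of them, against 0.616% of the 11372 genes tested by edgeR that also had a DESeq2 adjusted p. At an unadjusted p under 0.05 there was 1 gene higher, Psmd3, against a background of 3.7%, and 1 lower, Psmd4, against 3.13%. For none of the 48 did the groups fail to overlap, against 0.509% of all genes with every treated library higher and 0.43% with every treated library lower. The lowest adjusted p was 0.628 in edgeR, for Psmd4. In bulk RNA, fewer cells of a type and less RNA per cell cannot be told apart.

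Both sets had a median fold change close to 0. Of the 5 immunoproteasome genes 4 lay above 0 on the log2 scale (treated minus control), with a median of 0.12, and of the 43 others 14 lay above and 29 below, with a median of -0.17. All 11389 genes had a median of 0.03, with 5900 above and 5489 below. In the standard 20S core 1 of 14 genes lay above 0 (Psma4) and 13 below, with a median of -0.24. The lowest fold change in that set was -0.43 (Psmb5), and its lowest adjusted p was 0.765 (Psma2, edgeR). Fold changes over all genes leaned with exon length (Spearman 0.18 across genes, which are not independent), and proteasome genes are short, with a median merged exon length of 2804 bp against 4209 bp. With a per-library offset for length and GC content the core had 4 of 14 above 0 and a median of -0.10. The 5 immunoproteasome genes then had a median of 0.22 and the 43 others of -0.06. With the identifier letters as a covariate, where treatment rests on treated 1 alone, the 5 had 2 above 0 and a median of -0.15, and the 43 others a median of -0.46.

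**Figure D2:**
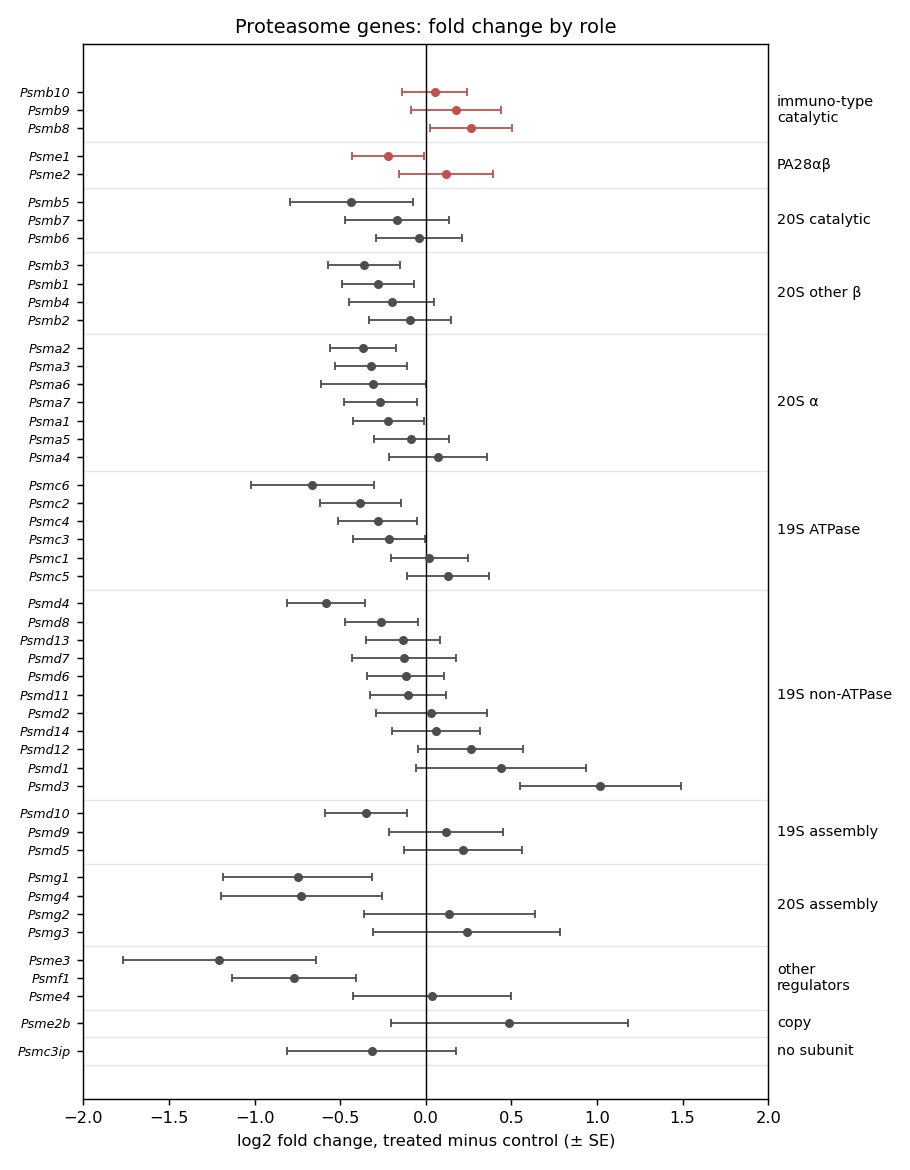
Log2 fold change, treated minus control, with its standard error (edgeR) for the 48 tested genes, grouped by role; the 5 immunoproteasome genes are in red. Of the standard core genes 13 of 14 lie left of 0, with standard errors of a size close to the changes.

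Psmb8 gave the highest mean of the immuno-type genes. It lies at chr17:34197721-34201454 on the plus strand (ENSMUSG00000024338), in the MHC region beside Psmb9. In control 1 to control 4 its level was 242, 212, 294 and 289 CPM, and in treated libraries it was 213 to 488 CPM with a median of 271. Treated 5 (392 CPM) and treated 6 (488 CPM) lay above all controls, and the other treated libraries lay within the control range. The means were 311 ± 95.2 (SD, n = 7) and 259 ± 38.9 CPM (SD, n = 4), and the log2 fold change was 0.26 ± 0.24 (SE; edgeR adjusted p = 0.914). Without control 3 and control 4 it was 0.49.

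Psmb9 (chr17:34181987-34187764, minus strand, ENSMUSG00000096727) varied most among controls, at 90.9, 124, 136 and 199 CPM. Treated libraries ran from 113 to 235 CPM with a median of 153, so the groups overlapped over most of their range. The fold change was 0.17 ± 0.26 (adjusted p = 0.95). Its exons share 212 bp, 5.79% of their length, with Tap1, the peptide transporter gene on the other strand, and the strand setting of the counting is not given in the sources used here. Psmb10 (chr8:105935735-105938444, minus strand, ENSMUSG00000031897) was the steadiest, at 195, 198, 184 and 232 CPM in controls and 164 to 243 CPM with a median of 230 in treated libraries. The means of Psmb10 were 210 ± 33.2 and 203 ± 20.5 CPM and its fold change 0.05 ± 0.19 (adjusted p = 0.979).

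Of the PA28αβ genes, Psme1 (chr14:55578123-55581529, plus strand, ENSMUSG00000022216) was the only immunoproteasome gene below 0. It stood at 160, 239, 184 and 260 CPM in controls and at 145 to 250 CPM with a median of 171 in treated libraries. Control 2 and control 4 lay high, with treated 6 alone above control 2 and no treated library above control 4. The means of Psme1 were 181 ± 34.7 and 211 ± 46.4 CPM, with a fold change of -0.22 ± 0.21 (edgeR adjusted p = 0.921). Psme2 (chr14:55587441-55591113, minus strand, ENSMUSG00000079197) stood at 170, 216, 257 and 248.7 CPM in controls and at 162 to 446 CPM with a median of 210 in treated libraries. Treated 6 alone lay at 446 CPM, and the next treated library, treated 5, at 278 CPM. The fold change of Psme2 was 0.12 ± 0.27 (adjusted p = 0.969) and -0.10 without treated 6. Psme2b, a single-exon copy of Psme2 on chromosome 11 whose reads cannot be parted from it with certainty, stood at 9.10 ± 3.75 and 6.50 ± 3.07 CPM.

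The 3 standard catalytic genes had fold changes below 0, with TMM scaling and with both other scalings tried. Psmb5 stood at 33.7, 26.2, 80.9 and 35.3 CPM in controls and at 24.3 to 49.6 CPM with a median of 27.7 in treated libraries. Control 3 alone was high, and the fold change of Psmb5 was -0.43 ± 0.36 (adjusted p = 0.901) with it and 0.15 without control 3 and control 4. Psmb6 stood at 243, 225, 169 and 114 CPM in controls and at 112 to 228 CPM with a median of 195 in treated libraries. Its controls spanned as wide a range as the treated libraries, and its fold change was -0.04 ± 0.25. Psmb7 stood at 42.7, 45.7, 51.3 and 21.8 CPM in controls and at 28.6 to 42.6 CPM with a median of 38.7 in treated libraries. Control 1 to control 3 lay above every treated library and control 4 below every one, and the fold change of Psmb7 was -0.17 ± 0.30.

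**Figure D3:**
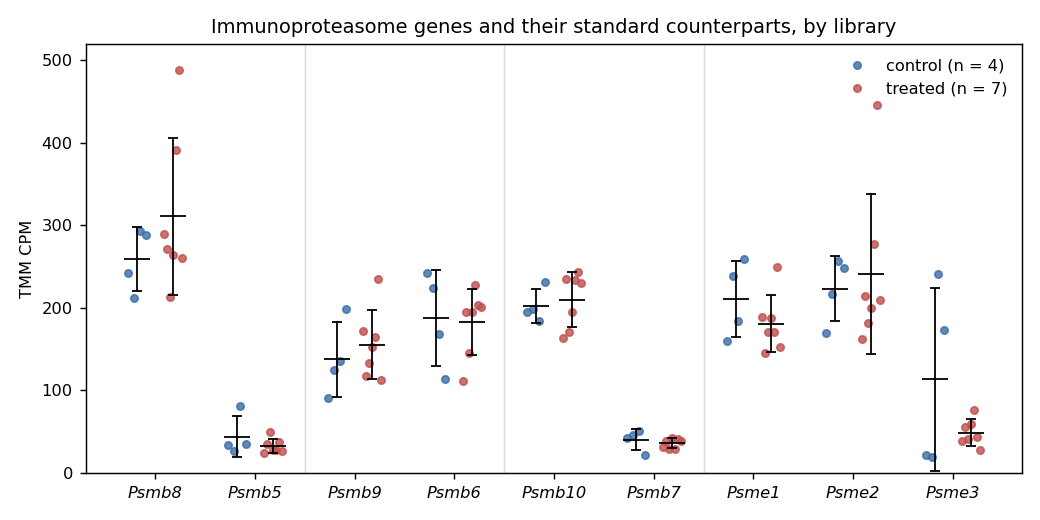
TMM-scaled CPM of the 5 immunoproteasome genes and of Psmb5, Psmb6, Psmb7 and Psme3 in each library (points), with group means (wide bars) and SD (error bars); blue, control (n = 4); red, treated (n = 7). The groups overlap for every gene, and Psme3 is high in 2 controls only.

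A ratio within a library needs no scaling between libraries. The count of Psmb8 over that of Psmb5 had a log2 ratio of 2.84, 3.02, 1.86 and 3.03 in control 1 to control 4 and of 2.104 to 3.84 with a median of 3.30 in treated libraries. In 5 of 7 treated libraries it was above all controls. The difference of means was 0.56 (exact two-sided permutation test over 330 arrangements, p = 0.164, adjusted p = 0.745 over 5 ratios), and 0.32 without control 3 and control 4. Leaving out 1 library moved it from 0.285 (without control 3) to 0.752 (without treated 3; exact permutation p = 0.0286, adjusted p = 0.143). For Psmb9 over Psmb6 controls gave -1.41, -0.85, -0.31 and 0.80 and treated libraries -0.83 to 0.62. The difference was 0.20 (exact permutation p = 0.667, adjusted p = 0.745). For Psmb10 over Psmb7 controls gave 2.19, 2.12, 1.84 and 3.40 and treated libraries 2.19 to 3.03, a difference of 0.16 (exact permutation p = 0.612, adjusted p = 0.745).

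Control 4 had the highest value of all 11 libraries for Psmb9 over Psmb6 and for Psmb10 over Psmb7. Without control 3 and control 4 every treated library lay above the other 2 controls in both ratios, with differences of 0.89 and 0.39. The exact permutation p was 0.0556 for each, the smallest that 7 against 2 libraries can give, and 0.0926 after adjustment. Psme1 over Psme3 had the same p and adjusted p there in the other direction, with a difference of -1.34. Psme2 over Psme3 gave -0.957 (exact permutation p = 0.111, adjusted p = 0.139) and Psmb8 over Psmb5 0.317 (exact permutation p = 0.5). As a share, Psmb8, Psmb9 and Psmb10 made up 63.9% ± 4.23 (SD, n = 7) of the transcripts per kb of the 6 catalytic genes in treated mice and 59.3% ± 8.63 (SD, n = 4) in controls. Controls stood at 54.0%, 56.7%, 54.3% and 72.1%, and treated libraries at 58.5% to 70.4% with a median of 62.1%. So 3 controls lay below all treated libraries and control 4 above all of them, and the difference of 4.63 percentage points became 8.9 without control 4 and 2.87 without control 1. With the principal transcript as the length the shares were 61.0% and 56.8%, and with the coding length 71.4% and 67.4%.

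**Figure D4:**
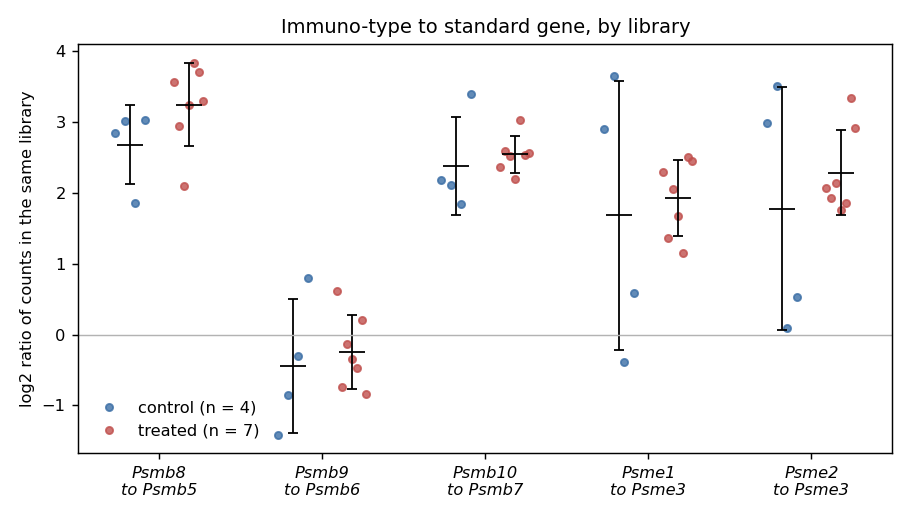
Log2 ratio of the counts of 2 genes in the same library, for 5 pairs of an immunoproteasome gene and a standard gene or PA28 relative; points are libraries, wide bars group means and error bars SD (blue, control, n = 4; red, treated, n = 7). For Psmb8 over Psmb5, 5 of 7 treated libraries lie above all controls. For the other pairs every treated library lies within the control range, and the controls spread widest for both pairs with Psme3.

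Treated 6 stood out among treated mice in these genes. It was the highest treated library for all 5 immunoproteasome genes and for 17 of the 48 proteasome genes (35.4%), against 12.5% of all genes tested, and the lowest for none of the 48. Treated 1 was the lowest for 18 of the 48 and the highest for 0, against 1546 and 1496 of all 11389 genes. The median fold change of the 5 immunoproteasome genes was 0.12 over all libraries, 0.02 without treated 6, also 0.02 without control 1, 0.21 without control 3, and 0.37 without control 3 and control 4. Treated 6 also had the highest sum of 15 monocyte and macrophage markers, at 19392 CPM, with the other treated libraries at 2365 to 10701 CPM. In control 1 to control 4 that sum was 2338, 1035, 13715 and 2983 CPM. Of these 15 markers 13 lay above 0 and none was at 0 in a whole group. B cell markers summed to 1415 to 6903 CPM in treated mice and 544 to 3345 CPM in controls, with 11 of 12 above 0. Neutrophil markers summed to 5820 to 14059 CPM in treated mice (median 13482) and 6854 to 12842 CPM in controls (median 10695), with 9 of 10 tested below 0. Both medians are above those of the eosinophil markers (8376 and 7509 CPM), summed over a different list of genes. In treated 4 the neutrophil sum was below the eosinophil sum (6347 against 6858 CPM), as in control 1 (6854 against 11673 CPM). In every other library it was above. The monocyte and macrophage sum was above the eosinophil sum in treated 3, treated 4, treated 5, treated 6 and control 3, and below it in the rest. In treated 6 these sums were 19392 and 6990 CPM. Of the 12 eosinophil markers 4 lay above and 8 below 0. The 13 T and NK cell markers summed to 47.2 to 492 CPM in treated mice and 93.0 to 142 CPM in controls. Of the 8 tested, 4 lay above and 4 below 0. Cd3e, Cd8a and Cd8b1 were at 0 in all controls. The part of these cells in the immunoproteasome values was not tested.

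Among the regulators other than PA28αβ, Psme3 and Psmf1 were high in 2 control libraries and Psme4 was not. Psme3 encodes PA28γ, the nuclear relative of PA28αβ (chr11:101316213-101323537, plus strand, ENSMUSG00000078652). Its level was 21.4, 18.96, 241 and 173 CPM in controls 1 to 4 and 27.7 to 76.8 CPM with a median of 44.1 in treated libraries. Control 3 and control 4 lay above every treated library and control 1 and control 2 below every one. The fold change of Psme3 was -1.21 ± 0.56 (edgeR adjusted p = 0.728) over all libraries and 1.31 without control 3 and control 4. Its ratios turned with it, from 0.24 to -1.34 for Psme1 over Psme3 and from 0.51 to -0.96 for Psme2 over Psme3. Over all libraries the exact permutation p of these ratios was 0.745 and 0.448, each 0.745 after adjustment.

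Psmf1 encodes PI31, an inhibitor of the 20S core in the test tube. It stood at 36.5, 56.7, 120 and 104 CPM in controls and at 23.1 to 69.6 CPM with a median of 45.6 in treated libraries, again with only control 3 and control 4 above the rest. Its fold change of -0.77 ± 0.36 (edgeR adjusted p = 0.728) became 0.03 without them. Psme4 encodes PA200, an activator of the core that acts without ubiquitin. It stood at 41.1, 22.5, 58.9 and 42.2 CPM in controls and at 9.79 to 86.3 CPM with a median of 41.7 in treated libraries, and its fold change was 0.04 ± 0.46.

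Control 3 and control 4 both lay above the other 9 libraries in 4 of 48 proteasome genes (8.33%), against 5.36% of all genes tested. These were Psme3, Psmf1, Psmd4 and Psmd8. Psmd4 encodes Rpn10, a ubiquitin receptor of the cap (chr3:95032694-95042614, minus strand, ENSMUSG00000005625). It stood at 226, 247, 417 and 291 CPM in controls and at 151 to 280 CPM with a median of 192 in treated libraries, and only treated 5 lay above control 1 and control 2. Its fold change of -0.58 ± 0.23 (edgeR adjusted p = 0.628) became -0.22 without both. Psmd8, a lid subunit, stood at 143, 152, 192 and 192 CPM in controls and at 105 to 187 CPM in treated libraries. All 9 erythroid and all 11 platelet markers also lay below 0. Erythroid markers summed to 10968, 1710, 293592 and 210132 CPM in control 1 to control 4 and to 12321 to 46876 CPM in treated libraries. Platelet markers summed to 351, 176, 7977 and 6927 CPM and to 849 to 3391 CPM.

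**Figure D5:**
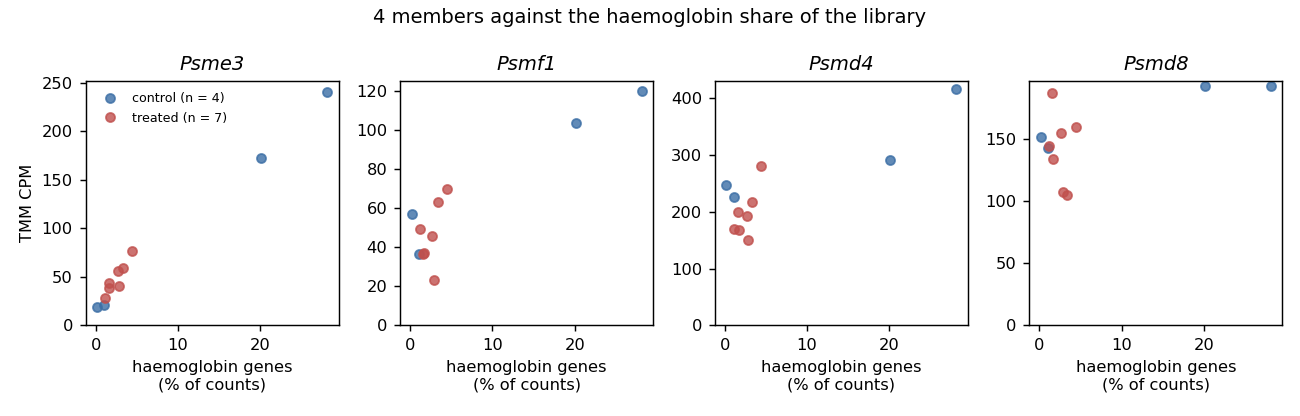
TMM-scaled CPM of Psme3, Psmf1, Psmd4 and Psmd8 against the share of counts from the 4 haemoglobin genes, by library (blue, control, n = 4; red, treated, n = 7). The 2 controls with 20.1% and 28.2% haemoglobin counts have the highest level in each panel.

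Of the other core genes, the α subunits Psma1, Psma2 and Psma7 showed the common direction. Psma2 stood at 198, 310, 240 and 246 CPM in controls and at 160 to 241 CPM with a median of 176 in treated libraries, with a fold change of -0.37 ± 0.19 (edgeR adjusted p = 0.765). Psma1 stood at 227 ± 48.7 and 264 ± 34.6 CPM and Psma7 at 301 ± 63.6 and 362 ± 67.5 CPM. Among the structural β genes, Psmb2 stood at 173 ± 40.0 and 184 ± 50.6 CPM and Psmb4 at 101 ± 26.1 and 116 ± 23.2 CPM. For Psmb2 the fold change of -0.09 became 0.17 with the offset for length and GC content.

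In the 19S cap the ATPase genes had 2 of 6 values above 0 and the non-ATPase genes 5 of 11, with medians of -0.25 and -0.10. Psmc6, an ATPase, stood at 98.6, 106, 218 and 69.4 CPM in controls and at 27.5 to 115 CPM with a median of 75.2 in treated libraries. Control 3 alone lay outside the treated range, and the fold change of Psmc6 was -0.66 ± 0.36 (edgeR adjusted p = 0.776), or -0.36 without control 3 and control 4. The 2 most abundant ATPase genes per kb were Psmc1, at 137 ± 31.3 and 135 ± 21.7 CPM, and Psmc4, at 132 ± 30.8 and 160.5 ± 31.8 CPM.

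Psmd3, a scaffold subunit of the lid, had the highest fold change of the cap at 1.02 ± 0.47 (edgeR adjusted p = 0.725). It stood at 25.4, 13.6, 27.6 and 31.3 CPM in controls and at 18.5 to 112 CPM with a median of 43.1 in treated libraries. Treated 4 alone reached 112 CPM, while treated 5 (26.1 CPM) and treated 7 (18.5 CPM) lay within the control range. The fold change of Psmd3 was 1.38 without control 3 and control 4.

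No assembly factor passed the test. Of the 19S chaperones, Psmd10 (gankyrin) averaged 74.3 ± 17.1 CPM in treated mice and 94.6 ± 19.5 CPM in controls, and Psmd5 at 88.8 ± 24.8 and 76.2 ± 40.8 CPM. Of the 20S chaperones, Psmg2 stood at 34.6 ± 14.6 and 31.5 ± 18.0 CPM. Psmg4 stood at 10.7, 35.2, 31.7 and 21.5 CPM in controls and at 7.66 to 26.5 CPM with a median of 12.5 in treated libraries, with a fold change of -0.73 ± 0.47 (edgeR adjusted p = 0.832). Treated 6 was again the highest treated library. Psmc3ip, which is no subunit, stood at 11.2 ± 1.71 and 13.98 ± 4.78 CPM, and 21.2% of its exon length overlaps Mlx on the other strand.

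Genes around the proteasome gave 0 calls as well. Of 15 partners and regulators of its own expression, 7 lay above and 8 below 0, with a median of -0.08. Nfe2l1, the factor that raises subunit genes when the proteasome is inhibited, stood at 14.2, 29.1, 12.0 and 0.364 CPM in controls and at 19.8 to 53.5 CPM with a median of 31.4 in treated libraries. The groups overlapped through control 2, and the fold change of Nfe2l1 was 1.19 ± 0.67 (edgeR adjusted p = 0.795). For Nfe2l1 it became 0.82 without control 4, 0.61 without control 3 and control 4, and 1.84 without control 2. Its relative Nfe2l2 stood at 199 ± 57.7 and 190 ± 99.5 CPM, and Ngly1, the glycanase that processes Nfe2l1, at 145 ± 48.9 and 168 ± 60.5 CPM. Txnl1, a thioredoxin-like protein of the cap, stood at 50.3, 96.2, 75.3 and 74.9 CPM in controls and at 28.0 to 61.4 CPM in treated libraries. Only treated 2 and treated 3 reached the lowest control, and the fold change of Txnl1 was -0.79 ± 0.28 (edgeR adjusted p = 0.626).

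Of 14 genes of ubiquitin supply and shuttling, 7 lay above and 7 below 0. Ubb, a polyubiquitin gene, stood at 1709, 1667, 2949 and 2872 CPM in controls and at 809 to 2092 CPM with a median of 1296 in treated libraries. Only treated 5 and treated 7 reached the controls, and control 3 and control 4 were again the highest. Its fold change of -0.79 ± 0.28 (edgeR adjusted p = 0.626) became -0.31 without control 3 and control 4. Ubqln1, a shuttle that carries ubiquitinated proteins to the cap, stood at 39.1, 44.6, 15.6 and 30.9 CPM in controls and at 41.9 to 84.4 CPM with a median of 77.6 in treated libraries. Of the treated libraries only treated 1 lay below the highest control, and the fold change of Ubqln1 was 1.05 ± 0.33 (edgeR adjusted p = 0.626).

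Of 11 genes of class I peptide supply and its control, 9 lay above 0, with a median of 0.21, against 0.03 for all genes. The class I heavy chain H2-K1 stood at 1462 ± 392 and 1037 ± 311 CPM and H2-D1 at 10868 ± 1668 and 9373 ± 2629 CPM. B2m, the class I light chain, stood at 4064 ± 985 and 4592 ± 1896 CPM, with a fold change of -0.18 over all libraries and 0.48 without control 3 and control 4.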

How the data were processed

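Reads were processed by the authors, who deposited raw counts per Ensembl gene. The tools were HISAT2 2.10, SAMtools 1.15.1 and bcl2fastq 2.20.0.422 on GRCm38, per the submitters' processing notes. How reads were counted, with which strand setting and annotation, is not given in the sources used here. One row that names no gene held 0 counts. Reads carried no molecular identifiers.

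Groups came from the treatment label. The whole table was tested with edgeR 4.0.16 in R 4.3.3 (quasi-likelihood test, robust dispersions, TMM scaling, filterByExpr, Benjamini-Hochberg over 11389 genes at 0.05), a step checked on simulated counts. DESeq2 1.42.0 and limma-voom with quality weights (limma 3.58.1) were alternatives. Ratios used counts plus 0.5 and an exact two-sided permutation test (scipy 1.17.1). Gene lengths came from GENCODE M21, with which the positions of all 50 genes matched, and promoter windows from RefSeq. Nearby or overlapping genes and copies may share reads.

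Named with values were the 5 immunoproteasome genes, their counterparts and other regulators, the tissue-restricted genes, the 2 most abundant genes per kb of each role, the 6 smallest p-values, and of each pathway list the 2 most abundant genes and 2 smallest p-values. Some pathway genes that this rule took are not reported here. Psmd6 and the extremes of variation were picked after their values were seen. Genes, lists and tests were chosen with earlier results of these data known. Psme2b was put in a list of its own later. The principal transcript as a length was added after seeing the data.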

Additional observations from a re-analysis of the deposited data

Results flagged for a closer look

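Of 68 groups of library values tested for a single value far from the rest (Dixon's test at 95%), 7 were set apart, and chance gives about 1 in 20. In the control group, Psmb5 stood at 80.9 CPM in control 3, with the next control at 35.3 CPM, and the log2 ratio of Psmb8 to Psmb5 at 1.86 in the same library, with the next at 2.84. The immuno-type share of catalytic transcripts per kb stood at 72.1% in control 4, with the next control at 56.7%. In the treated group, Psme2 stood at 446 CPM in treated 6, with the next treated library at 278 CPM, and Psme1 at 250.1 CPM in the same library, with the next at 189 CPM. Psmd3 stood at 112 CPM in treated 4, with the next at 57.0 CPM. Psmd5, a chaperone of cap assembly, stood at 141 CPM in treated 2, with the next at 91.8 CPM.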

How the results depend on the processing

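No proteasome gene was called with any setting run, DESeq2 included, and over the genes tested 0 were called in each direction except by DESeq2, which called 57 higher and 22 lower over the 21666 genes it was fitted on, 70 of them among the genes that edgeR tested (the cause was not tested). The median log2 fold change over all genes was 0.03 and moved by over 0.1 without a filter (to 0.20), with the replicate block (to 0.13) and with the identifier letters as a covariate (to -0.08). Neither other scaling turned the median of either set. With those letters the median of the 5 immunoproteasome genes was -0.154 and that of the other proteasome genes -0.455, where treatment rests on treated 1 against the controls. With treated 1 alone against the controls the difference in immuno-type share was 11.1 percentage points, and the ratio of Psmb10 to Psmb7 was -0.0211. The median level of the standard 20S genes was 87.6 CPM per kb by principal transcript and 219 by coding length, by construction.

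Same-numbered libraries did not deviate together (correlations of -0.0315, 0.0212, -0.116 and -0.0417). No pairing by number was seen, but so few pairs cannot exclude it. With a replicate block, treatment rests on treated 1 to treated 4 and the controls of the same numbers. Treated 5 to treated 7 have no control of their number and add nothing to it. With the block 0 genes were called, the difference in share was 3.69 points and the median of the 5 immunoproteasome genes was -0.0937. The fold change turned for Psmb10 (-0.0937), Psmc1 (-0.161), Psme2 (-0.226) and Psme4 (-0.293). Without control 3 and control 4 the ratios of Psme1 and Psme2 to Psme3 turned to -1.34 and -0.957, and the fold changes turned for B2m (0.483), Ngly1 (0.185), Psmb5 (0.154), Psmc1 (-0.0865), Psmd5 (-0.234), Psme3 (1.31), Psmf1 (0.0305) and Psmg2 (-0.0938). Of the 48 proteasome genes 12 changed sign there, as did 3000 of all 11389. With the letters they turned for Ngly1 (0.176), Psmb10 (-0.305), Psmc1 (-0.217), Psme2 (-0.460) and Psmg2 (-0.188). With the number of detected genes as a covariate they turned for B2m (0.231), Ngly1 (0.0657), Psme3 (0.467), Psme4 (-0.123) and Psmf1 (0.0442), and with the offset for length and GC content for B2m (0.171), Psmb2 (0.167), Psmb6 (0.112) and Psme4 (-0.0552). limma-voom turned B2m (0.0308), Psmc1 (-0.0275) and Psme3 (0.292), and DESeq2 size factors Psme4 (-0.00122). None of these was called, and the causes were not tested.

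Leaving out 1 library at a time gave differences of 0.285 (without control 3) to 0.752 (without treated 3) for Psmb8 to Psmb5, -0.123 (without control 1) to 0.616 (without control 4) for Psmb9 to Psmb6, -0.0235 (without control 3) to 0.496 for Psmb10 to Psmb7, -0.449 (without control 3) to 0.897 for Psme1 to Psme3, which was also below 0 without control 4, and -0.0502 (without control 3) to 1.09 for Psme2 to Psme3. Fold changes of genes that turned ranged from -0.376 to 0.0416 for B2m, -0.114 to 0.493 for Nfe2l2, -0.190 to 0.104 for Psmb2, -0.612 to 0.0611 for Psmb5, -0.201 to 0.114 for Psmb6, -0.0685 to 0.107 for Psmc1, -0.0371 to 0.547 for Psmd5, -0.0989 to 0.226 for Psme2, -0.244 to 0.284 for Psme4 and -0.200 to 0.365 for Psmg2. With 4 controls, the number of mice limits the precision of these changes. The common biological coefficient of variation was 0.828 over all genes. The proteasome genes tested varied less, with median coefficients of variation of 24.2% over treated and 27.8% over control libraries, against 48.0% and 62.4% for all genes.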
